A study of Mus musculus with 8 samples.

Results

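The genes described here are Epcam, Krt7, Krt8, Krt18, Krt19, Sox9, Spp1, Cldn4, Cldn7 and Cdh1, 10 transcripts by which epithelial cells, bile duct cells and carcinoma cells are commonly recognized. They were chosen by symbol, and all 10 have a row among the 55487 genes of the deposited table. The study implanted MC38 cells, a mouse colon adenocarcinoma line labelled with GFP, under the skin of Bmal1+/+ and Bmal1-/- mice, dissociated the tumors, removed the GFP-positive tumor cells by fluorescence-activated sorting and sequenced RNA of what remained, the stromal vascular fraction. There were 4 libraries per genotype. Both genotypes came from Bmal1+/- founders, and the deletion was carried by the host and not by the implanted cells. The sources used here give no age or sex of these mice. Removal by GFP leaves behind any tumor cell that had lost the label, and any epithelial cell of the host. The levels of the 10 genes therefore bear on which cells the RNA came from, and their change between genotypes on how that differed.

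Simple epithelia build their intermediate filaments from pairs of a type II and a type I keratin. Hepatocytes of the adult liver use only Krt8 with Krt18, while bile duct cells, and the epithelium of colon and its carcinomas, also carry Krt19 and, in ducts, Krt7. Epcam and Cdh1 (E-cadherin) hold epithelial cells to one another, Cldn4 and Cldn7 are tight junction claudins, Sox9 is a transcription factor of duct and progenitor cells, and Spp1 encodes osteopontin, a secreted phosphoprotein that binds integrins and Cd44.

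Across the series, the total count per library lay between 14783346 and 18449143 in Bmal1+/+ and between 14054825 and 15624815 in the other group. The detection floor was set at 3 counts, which corresponded to 0.167 to 0.213 CPM (counts scaled to a common library size with edgeR's TMM factors). This floor covers counting error only. Bmal1 (Arntl), the deleted gene, stood at 0.959 to 2.70 CPM in Bmal1+/+ and at 30.1 to 35.0 CPM in the other group. It was thus higher in the group labelled as lacking it, which is called the libraries labelled Bmal1-/- throughout. Counts per gene do not show which exons were read, and the cause was not tested. Every rise and fall below follows the labels as given and would reverse if they were exchanged. Xist was at 842 to 1093 CPM in Bmal1+/+ and at 0.142 to 0.748 CPM in the libraries labelled Bmal1-/-, and 4 genes of the Y chromosome summed to 0 counts in each Bmal1+/+ library and to between 1785 and 2292 in the others. Sex therefore cannot be told apart from genotype in any comparison that follows. The labels do not tie each library to its own mouse, so the p-values measure the spread between these samples, which may in part be technical.

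Among the 10 genes, only the keratin pair Krt8 and Krt18 was abundant. Per transcript length (FPKM, as deposited), the mean over the 8 libraries was 79.8 for Krt8 and 54.8 for Krt18, above the mean FPKM of 96.1% and 94.7% of the 14353 tested genes. Spp1 followed at 7.75, Cdh1 at 2.50 and Sox9 at 1.87 FPKM. Krt19 (0.600), Epcam (0.290), Cldn7 (0.168), Krt7 (0.0807) and Cldn4 (0.0325 FPKM) lay below 1. In every library Krt8 stood above Krt18, and Krt18 above Spp1. From Spp1 downward the ranges of neighbouring genes over the 8 libraries overlapped, so the order of their means is a description only. Krt8 and Krt18 together made up 69.1% to 85.7% of the counts on the 10 genes, and the 10 genes made up 0.0218% to 0.0266% of all counts in Bmal1+/+ and 0.0296% to 0.0501% in the libraries labelled Bmal1-/-.

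The genes that define other cell types give these levels a scale. Alb (albumin) stood at 25270 to 27610 FPKM in Bmal1+/+ and at 4867 to 7530 in the libraries labelled Bmal1-/-. Hnf4a, a transcription factor of hepatocytes and of intestinal epithelium, stood at 74.9 to 110 FPKM over all 8 libraries. A list of 20 hepatocyte genes took 11.7% to 13.1% of all counts in Bmal1+/+ and 7.90% to 9.52% in the libraries labelled Bmal1-/-. By label the tissue is a tumor stroma, yet Alb stood above the mean FPKM of 99.99% of tested genes. A list of 12 fibroblast genes took 0.0174% to 0.0255% of all counts in Bmal1+/+ and 0.0123% to 0.0133% in the libraries labelled Bmal1-/-. Hepatocyte transcripts thus led libraries whose label names a tumor stroma, and the reason was not tested. Of the marker genes of stroma, Vim (vimentin, an intermediate filament of mesenchymal cells) stood at 1.77 to 3.87 FPKM and Col1a1 at 0.400 to 0.841. Pecam1 of endothelium stood at 1.54 to 2.73 and Ptprc (CD45) of leukocytes at 0.158 to 0.871. Lyz2, the lysozyme of macrophages and other myeloid cells, stood higher, at 67.8 to 89.9 FPKM in Bmal1+/+ and 27.6 to 48.6 in the libraries labelled Bmal1-/-. Of the intestinal epithelial genes, Cdx1 and Cdx2, the homeobox factors that define gut epithelium, had 0 counts in all 8 libraries, which allows up to 3 counts in each. Vil1 (villin) had at most 7 counts. Of 23 intestinal genes on the list, 9 had no count in any library and 13 did not exceed the floor in any. Others on the list, named after their values were seen, were present. Fabp2, a fatty acid-binding protein of enterocytes, stood at 14.5 to 54.9 FPKM, with a mean above that of 92.5% of tested genes. Lgals4 (galectin 4) had 65 to 332 counts and Car1 (carbonic anhydrase 1) 21 to 206 counts.

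**Figure D1:**
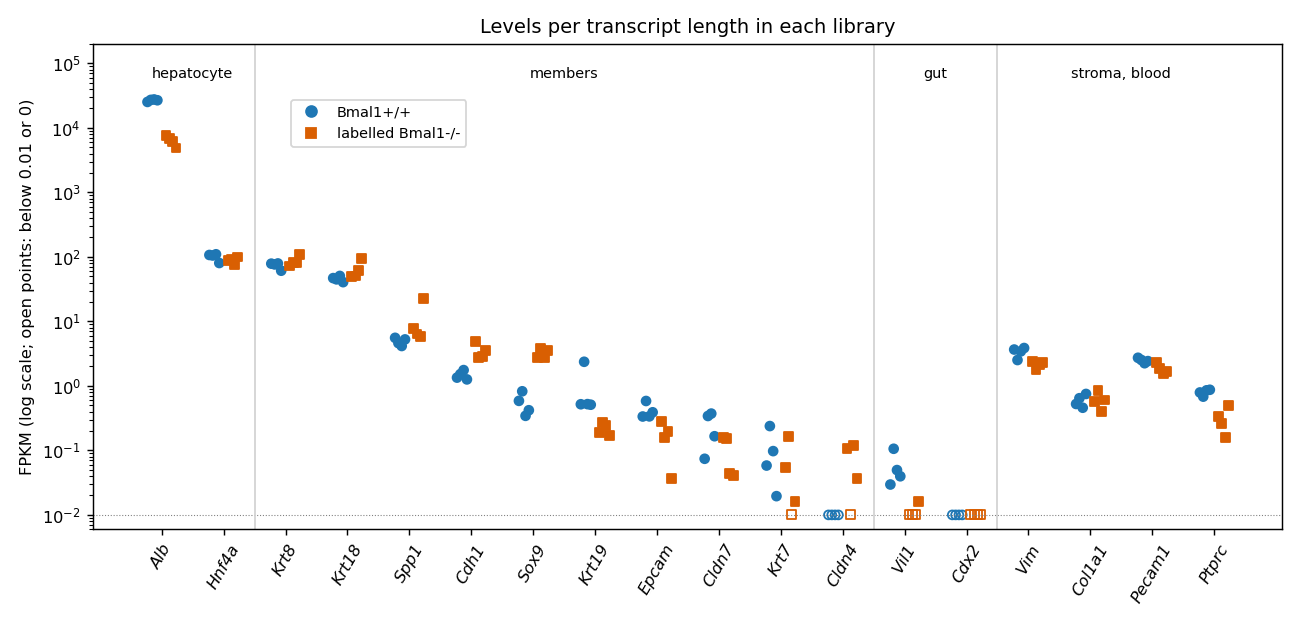
FPKM of 18 genes on a log axis, 1 point per library, with Bmal1+/+ as circles and the libraries labelled Bmal1-/- as squares, and open points for values of 0 or below 0.01. Krt8 and Krt18 lie near Hnf4a, the other 8 members lie below them in every library, and Cdx2 is at 0 throughout.

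The keratins Krt8 and Krt18 came first in level and had the smallest fold changes of the tested members. Krt8, the type II partner, had 153, 154, 154 and 123 CPM in Bmal1+/+ replicates 1 to 4 and 138, 157, 157 and 215 CPM in replicates 1 to 4 of the libraries labelled Bmal1-/-. The groups overlapped, with the lowest value in Bmal1+/+ replicate 4 and the highest in replicate 4 of the other group. The mean was 146 ± 15.5 CPM (SD, n = 4) against 167 ± 33.4 CPM (SD, n = 4), a log2 fold change of 0.19 (SE 0.15). The quasi-likelihood test of edgeR, adjusted over all tested genes by the Benjamini-Hochberg method, gave an adjusted p of 0.357, so no difference was called. Krt18, the type I partner, had 66.8, 66.4, 72.2 and 59.9 CPM in Bmal1+/+ and 69.0, 70.6, 87.2 and 138 CPM in the libraries labelled Bmal1-/-. Only replicates 3 and 4 of the latter lay above all Bmal1+/+ libraries. Its log2 fold change was 0.46 (SE 0.21, adjusted p = 0.121 by the same test). Without replicate 4 of the libraries labelled Bmal1-/-, the log2 fold change was 0.05 for Krt8 and 0.19 for Krt18.

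The partners were compared within each library, where scaling plays no part. The ratio of Krt18 to Krt8 counts was 0.438, 0.430, 0.470 and 0.488 in Bmal1+/+ and 0.50, 0.451, 0.554 and 0.643 in the libraries labelled Bmal1-/-, so 3 of these 4 lay above every Bmal1+/+ value and replicate 2 did not. The mean log2 ratio was -1.13 ± 0.0856 (SD, n = 4) against -0.91 ± 0.218 (SD, n = 4). The difference of 0.22 had p = 0.114 in a two-sided exact permutation test over the 70 regroupings of the samples, whose smallest possible p is 0.0286. With 1 library left out at a time, the difference lay between 0.13 (without replicate 4 of the libraries labelled Bmal1-/-, p = 0.171, exact permutation test) and 0.30 (without replicate 2 of that group, the 1 library that lay among the Bmal1+/+ values, p = 0.0286, exact permutation test). The other 6 omissions gave p from 0.114 to 0.229 in the same exact test. Reads on Krt8 can be shared with the processed pseudogene Krt8-ps, which is 98.6% identical to the Krt8 transcript over 941 bases. Krt8-ps was assigned 196 to 297 counts, 8.85% to 10.7% as many as Krt8, and had a log2 fold change of 0.15 (adjusted p = 0.470 by edgeR). The split of reads between them is uncertain, by an amount that these counts do not give.

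**Figure D2:**
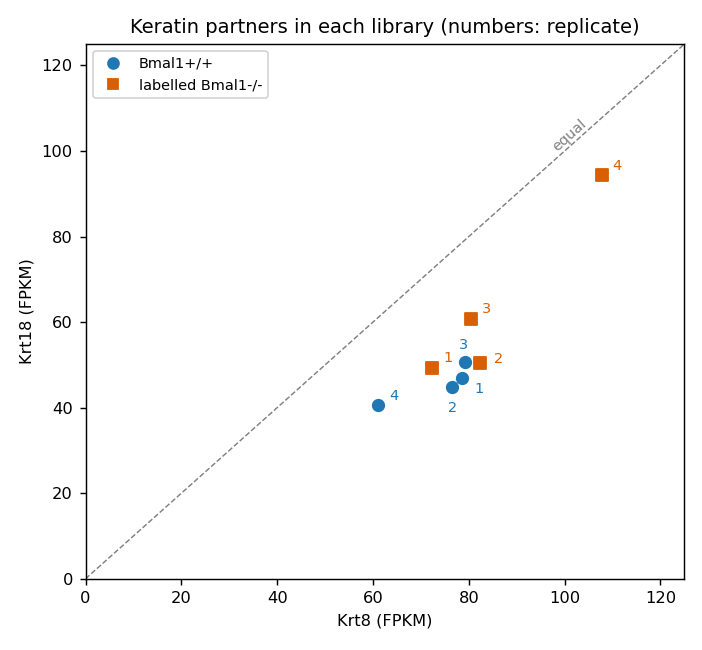
Krt18 against Krt8 in FPKM, 1 point per library, numbered by replicate, with Bmal1+/+ as circles and the libraries labelled Bmal1-/- as squares. All 8 points lie below the dashed line of equal levels, and replicate 4 of the libraries labelled Bmal1-/-, at 108 FPKM of Krt8 and 94.4 FPKM of Krt18, lies apart from the other 7.

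Krt8 and Krt18 are neighbours on chromosome 15 of GRCm38, at 101996698 to 102004482 on the minus strand and at 102028180 to 102032027 on the plus strand, 23697 bases apart. Their upstream sequences are shown because they are the 2 abundant genes of the set and Bmal1 acts on promoters, directly at the E-box CACGTG and through the ROR and REV-ERB receptors at the half-site AGGTCA, which stands in capitals (RefSeq windows, GRCm38.p6, printed 5′ to 3′ on the strand of the gene):

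Krt8, chr15:102004483-102004592, minus strand: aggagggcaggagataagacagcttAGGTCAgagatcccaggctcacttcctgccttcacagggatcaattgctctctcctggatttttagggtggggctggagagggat

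Krt18, chr15:102027966-102028179, plus strand: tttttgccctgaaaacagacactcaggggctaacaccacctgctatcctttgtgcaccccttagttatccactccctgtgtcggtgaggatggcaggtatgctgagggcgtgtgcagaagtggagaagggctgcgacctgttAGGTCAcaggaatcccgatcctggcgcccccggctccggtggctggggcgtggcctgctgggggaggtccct

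Of the 10 genes, 7 have a RefSeq window of 250 bases before to 50 bases after the start, 9 windows in all. No window was at hand for Cdh1, Krt19 and Sox9. AGGTCA, searched on both strands, occurred in 5 of these 7 genes, beginning 225 bases upstream of the start in Krt8, 108 upstream in Krt18, 217 upstream in Cldn4, 40 and 31 upstream in the 2 windows with a match in Cldn7, and 16 downstream in Krt7. Counted by window, AGGTCA occurred in 6 of these 9 and in 16.3% of all 32851 windows. Distances are counted from the RefSeq start of each window. The windows of Krt8 and Krt18 span 102004293 to 102004592 and 102027966 to 102028265, and their RefSeq starts lie inside the gene coordinates given above. The sequences shown stop at the edge of those coordinates, at 110 and 214 bases, so AGGTCA lies nearer to their ends than these distances. CACGTG occurred in Epcam alone, 31 bases downstream of the start, and it overlapped no AGGTCA in these genes. That is 1 of the 9 windows, beside 7.15% of all windows. These matches are a description of the letters and not of binding.

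The duct-type keratins Krt19 and Krt7 had few counts, and Krt19, the only one tested, was lower in the libraries labelled Bmal1-/-. Krt19 (chromosome 11, 100140810 to 100148665, minus strand), the type I keratin of ducts and of intestinal epithelium, had 20, 89, 18 and 22 counts in Bmal1+/+ and 7, 9, 8 and 6 counts in the libraries labelled Bmal1-/-. In CPM these were 1.20, 5.69, 1.21 and 1.22 against 0.436, 0.622, 0.568 and 0.406. Every library labelled Bmal1-/- lay below every Bmal1+/+ library, and Bmal1+/+ replicate 2 was more than 4 times as high as the other 3. Krt19 fell, with a log2 fold change of -2.18 (SE 0.61, adjusted p = 0.0220 by edgeR). Without Bmal1+/+ replicate 2 the log2 fold change was -1.25 (adjusted p = 0.0178), and the adjusted p was 0.0532 without replicate 1 of the libraries labelled Bmal1-/-. Krt8 exceeded Krt19 per transcript length by 151, 32.3, 152 and 120 times in Bmal1+/+ and by 377, 299.9, 330 and 631 times in the libraries labelled Bmal1-/-.

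Krt7 (chromosome 15, 101411043 to 101430313, plus strand), the type II keratin of ducts, had 8, 32, 12 and 3 counts in Bmal1+/+ and 7, 19, 0 and 2 in the libraries labelled Bmal1-/-. The groups overlapped, replicate 2 was the highest of each group, and the gene did not pass edgeR's expression filter, so it was not tested. Its gene overlaps Gm671 on the opposite strand. The sources used here do not say whether strand was used in counting. Of the other 50 keratin genes in the table, 42 had no count in any library, and 45 did not exceed the floor. Only Krt10 and Krt23 were tested. Krt23, a type I keratin, fell from 1.72 to 4.03 CPM in Bmal1+/+ to 0.203 to 1.14 CPM in the libraries labelled Bmal1-/- (log2 fold change -2.08, SE 0.44, adjusted p = 0.00646 by edgeR). Krt10, a keratin of the epidermis, had a log2 fold change of 0.73 (adjusted p = 0.154).

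Adhesion genes moved in both directions. Cdh1 (chromosome 8, 106603351 to 106670246, plus strand), the cadherin of adherens junctions, had 7.33, 8.63, 9.59 and 7.11 CPM in Bmal1+/+ and 26.4, 14.6, 15.9 and 20.0 CPM in the libraries labelled Bmal1-/-. All 4 of the latter lay above all 4 of the former, with the highest value in replicate 1. Cdh1 rose, from a mean of 8.17 ± 1.16 to 19.2 ± 5.32 CPM (SD, n = 4 each), a log2 fold change of 1.24 (SE 0.20, adjusted p = 0.00156 by edgeR), and it stayed called when any 1 of the 8 libraries was left out.

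Epcam (chromosome 17, 87635979 to 87651129, plus strand), a surface adhesion molecule of ducts, intestinal epithelium and carcinomas, had 20, 34, 18 and 26 counts in Bmal1+/+ and 16, 8, 10 and 2 counts in the libraries labelled Bmal1-/-. In CPM these were 1.20, 2.17, 1.21 and 1.45 against 0.997, 0.553, 0.710 and 0.135. The groups did not overlap, although the gap between 0.997 and 1.20 CPM was narrow. Epcam was at the threshold, with a log2 fold change of -1.31 (SE 0.45) and an adjusted p of 0.0497 by edgeR. The call was lost in 7 of 8 fits that left out 1 library. Without Bmal1+/+ replicate 2 the log2 fold change was -1.09 (adjusted p = 0.134), it was -0.98 (adjusted p = 0.0603) without replicate 4 of the libraries labelled Bmal1-/-, and the only omission that kept the call was that of replicate 1 of the latter group (-1.68, adjusted p = 0.0326).

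The claudins among the 10 genes were at or near the floor. Cldn7 (chromosome 11, 69964779 to 69967885, plus strand) had 4, 18, 18 and 10 counts in Bmal1+/+ and 8, 7, 2 and 2 in the libraries labelled Bmal1-/-, which overlapped. Cldn4 (chromosome 5, 134945119 to 134946934, minus strand) had 0 counts in all 4 Bmal1+/+ libraries and 3, 0, 3 and 1 in the others, none above the floor, so no fold change is given. Neither passed the expression filter, so neither was tested.

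**Figure D3:**
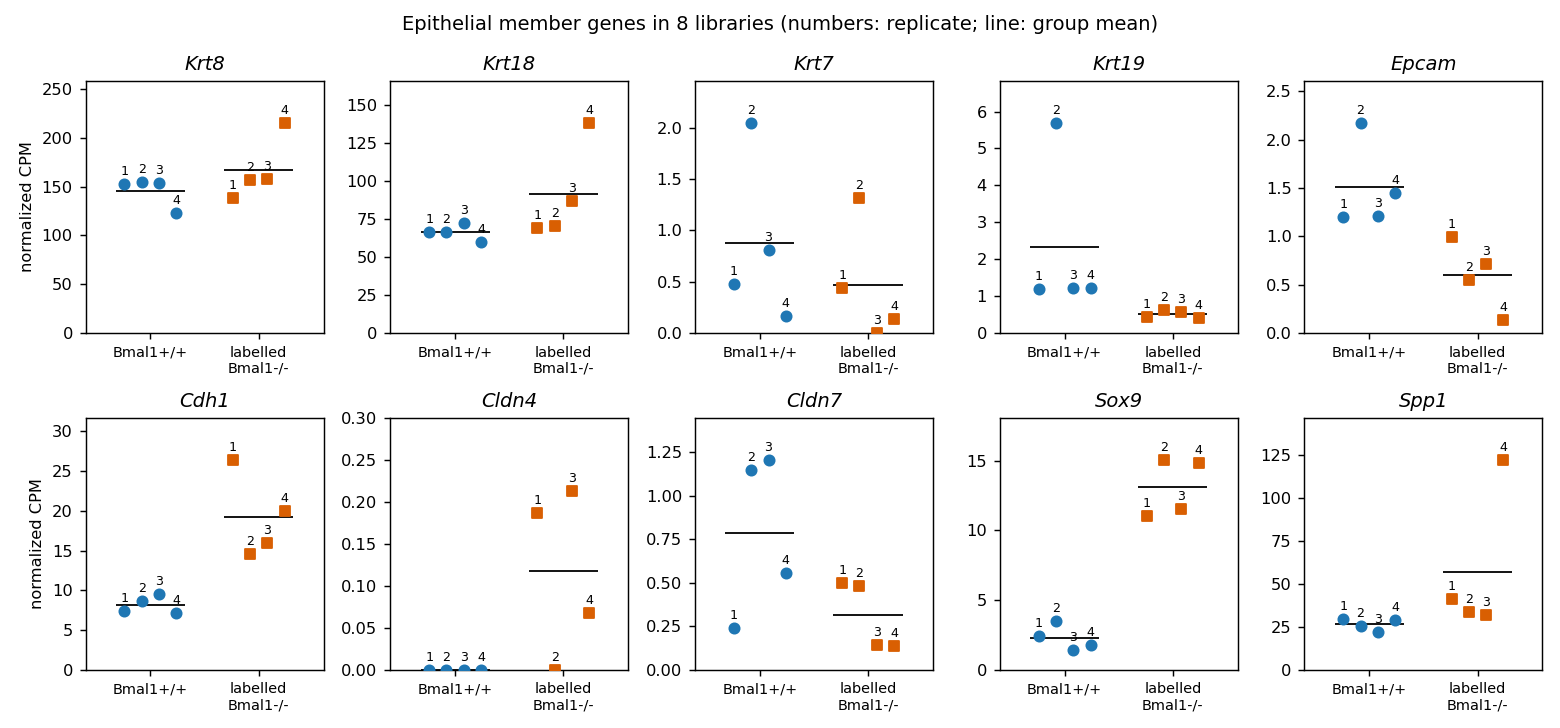
Normalized CPM of each of the 10 genes, 1 panel per gene with its own linear axis from 0, 1 point per library numbered by replicate, and a line at the group mean. Sox9 and Cdh1 are higher in all 4 libraries labelled Bmal1-/-, Krt19 and Epcam lower in all 4, and Spp1, Krt8 and Krt18 have their highest value in replicate 4 of that group.

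Sox9 showed the largest rise among the 7 tested genes. Sox9 (chromosome 11, 112782224 to 112787760, plus strand), a transcription factor of duct and progenitor cells that is also used by other cell types, had 40, 55, 21 and 32 counts in Bmal1+/+ and 177, 218, 162 and 219 in the libraries labelled Bmal1-/-. In CPM these were 2.40, 3.52, 1.41 and 1.78 against 11.03, 15.1, 11.5 and 14.8. The lowest library labelled Bmal1-/- was above 3 times the highest Bmal1+/+ library. Sox9 rose from a mean of 2.28 ± 0.922 to 13.1 ± 2.13 CPM (SD, n = 4 each), a log2 fold change of 2.52 (SE 0.26, adjusted p = 1.3e-04 by edgeR). It was called in all 8 fits that left out 1 library, with a log2 fold change between 2.36 and 2.80. Sox9 and the duct keratin Krt19 therefore moved in opposite directions between the same samples.

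Spp1 (chromosome 5, 104435118 to 104441050, plus strand) had 29.6, 25.5, 22.1 and 29.0 CPM in Bmal1+/+ and 41.1, 33.3, 31.6 and 122 CPM in the libraries labelled Bmal1-/-. The groups did not overlap, and replicate 4 was about 3 times as high as the next library. The mean was 26.6 ± 3.46 against 57.1 ± 43.6 CPM (SD, n = 4 each), a log2 fold change of 1.10 (SE 0.41) with an adjusted p of 0.0646 by edgeR, past no threshold. The log2 fold change was 0.42 (adjusted p = 0.0517) with replicate 4 left out. DESeq2 gave an adjusted p of 0.0195 on all 8 libraries, and edgeR gave 0.0464 without replicate 2 and 0.0461 without replicate 3 of the libraries labelled Bmal1-/-.

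Of the 10 genes, 7 were tested, and 4 of these 7 were called at an adjusted p below 0.05, against 31.1% of the 14353 genes tested. This share depends on the expression filter: 3 of 10 members were called by edgeR with no filter. With at least 10 counts required in every sample, 2 of 5 were called, and Krt19 and Epcam were not tested. Those 2 genes had at least 10 counts in all 4 libraries of a group only in Bmal1+/+. The 7 genes of the shares that follow were set by the main filter. Sox9 and Cdh1 were called higher, where 14.9% of all genes were, and Krt19 and Epcam lower, where 16.2% were. The groups did not overlap in 5 of the 7, against 33.4% of all genes, with 3 higher in the libraries labelled Bmal1-/- (16.7% of all genes) and 2 lower (16.8%). The median log2 fold change of the 7 was 0.46, beside 0.02 over all tested genes. This median is the value of Krt18, which was not called (adjusted p = 0.121 by edgeR). Without replicate 4 of the libraries labelled Bmal1-/-, Krt18 was at 0.19, so the median shows no general shift. Bmal1+/+ replicate 2 and replicate 4 of the libraries labelled Bmal1-/-, the 2 doubted libraries, were also left out together. Sox9, Cdh1 and Krt19 were then called and Epcam was not (log2 fold change -0.77, adjusted p = 0.129 by edgeR). These 2 were chosen after the data were seen. The first held the highest Krt19 and Epcam, the second the highest Krt8, Krt18 and Spp1, so this fit is no independent check. Bmal1+/+ replicate 4, which stood apart in other genes, was kept. In bulk RNA, fewer cells of a type and less RNA per cell cannot be told apart.

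**Figure D4:**
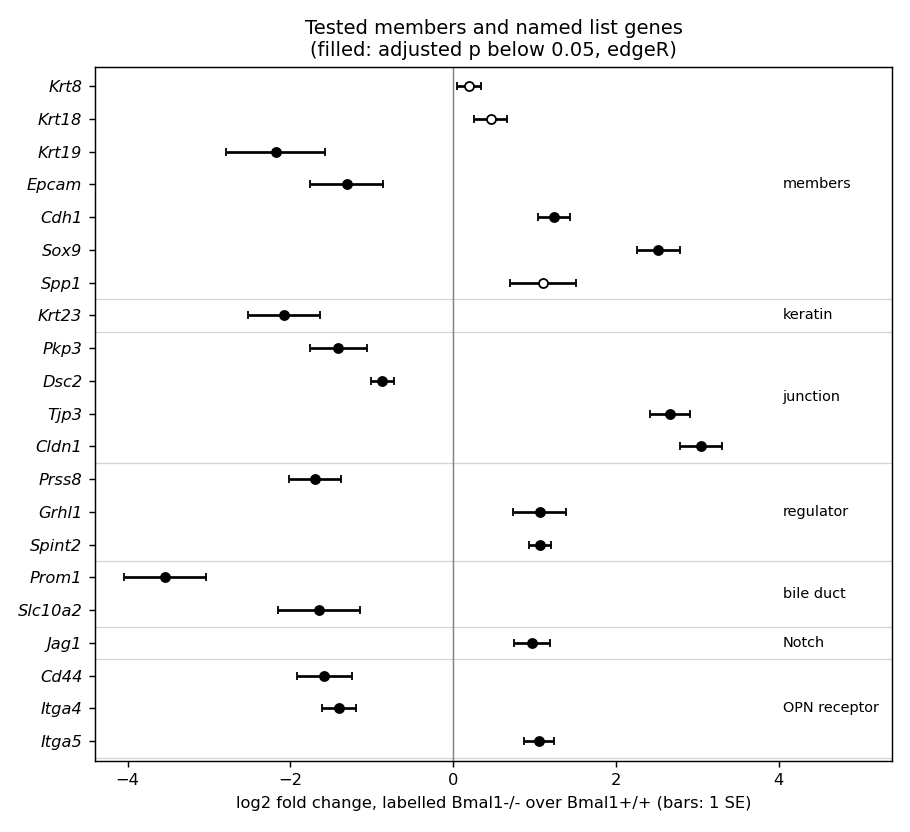
Log2 fold change of the libraries labelled Bmal1-/- over Bmal1+/+ from edgeR, with bars of 1 standard error, for the 7 tested members and 14 genes of the related lists, filled where the adjusted p was below 0.05. Among the members Sox9 lies farthest to the right at 2.52 and Krt19 farthest to the left at -2.18, and the junction genes, the regulators and the osteopontin receptors hold points on both sides of 0.

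Genes of cell junctions outside the 10 also moved in both directions. Of 32 on the list, 28 were tested, 7 rose and 5 fell, with a median log2 fold change of 0.08. Over all tested genes, 14.9% were called higher and 16.2% lower. The counts of this and the following lists are to be read beside these shares. Cldn1, a tight junction claudin expressed in hepatocytes, rose from 7.58 to 17.2 CPM in Bmal1+/+ to 82.7 to 111 CPM (log2 fold change 3.05, SE 0.26, adjusted p = 3.5e-05). Tjp3 (ZO-3), a scaffold protein under the same junction, rose by a log2 fold change of 2.67 (SE 0.25, adjusted p = 6.0e-05), and Pkp3 (plakophilin 3) and Dsc2 (desmocollin 2), both of desmosomes, fell by 1.41 (adjusted p = 0.0141) and by 0.87 (adjusted p = 0.00196) on the log2 scale. These are adjusted p-values from edgeR. The junction genes summed to 2118 to 2347 CPM in Bmal1+/+ and to 2214 to 2395 CPM in the libraries labelled Bmal1-/-, ranges that overlap.

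Regulators and surface proteases of epithelia were mostly too low to test. Of 17 on the list, 5 passed the filter, with a median log2 fold change of 0.49. All 5 of these were called by edgeR, 3 higher and 2 lower, against 31.1% of all tested genes. This share depends on the expression filter: 3 of 16 were called by edgeR with no filter. With at least 10 counts required in every sample, only 2 were tested, and both were called. Spint2, a surface inhibitor of serine proteases, rose from 45.4 to 66.5 CPM to 105 to 131 CPM (log2 fold change 1.07, SE 0.14, adjusted p = 3.97e-04). Grhl1 (grainyhead-like 1, a transcription factor) rose from at most 0.961 CPM to at least 0.997 CPM (log2 fold change 1.06, adjusted p = 0.0321), and Prss8 (prostasin, a surface protease) fell from 2.21 to 3.00 CPM to 0.374 to 1.15 CPM (log2 fold change -1.70, adjusted p = 0.00336). Grhl1 lost its call without Bmal1+/+ replicate 2, 3 or 4 and without replicate 3 or 4 of the libraries labelled Bmal1-/- (log2 fold change 0.84 to 1.04 in these 5 fits), and 3 of the list were called without Bmal1+/+ replicate 2 or 4, or without replicate 3 of the other group. Ovol1 had 0 counts in every library and Grhl2 at most 8.

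Of 6 repressors of epithelial genes on the list, 5 were tested and only Zeb2 was called, against 31.1% of all tested genes. Zeb2 fell (log2 fold change -0.70, adjusted p = 0.0389 by edgeR). The list had a median log2 fold change of -0.32 and sums of 33.1 to 41.4 CPM against 23.7 to 36.0 CPM. Snai1 (Snail) had a log2 fold change of -0.97 and did not pass the test (adjusted p = 0.0574 by edgeR). The call on Zeb2 rested on the set of libraries: 0 of the 5 were called without Bmal1+/+ replicate 1, 3 or 4, or without replicate 1 or 2 of the libraries labelled Bmal1-/-. Notch and YAP signalling acts upstream of Sox9 in duct cells, and the list of 13 Notch and YAP genes holds components and targets of both. Of these 13 genes, 11 were tested, with a median of 0.02. Among the 11, 3 rose and 1 fell, against 14.9% and 16.2% of all tested genes. Jag1, a Notch ligand, rose from 2.22 to 3.07 CPM to 3.98 to 6.98 CPM (log2 fold change 0.97, SE 0.22, adjusted p = 0.00809), while Hes1, a Notch target, fell (log2 fold change -0.81, adjusted p = 0.0408). Ccn1 and Yap1 were the other 2 that rose, by 0.92 (adjusted p = 0.0405) and 0.34 (adjusted p = 0.0431). With 1 library left out, the count of 4 on this list fell to 1 without Bmal1+/+ replicate 1 or 4 or replicate 2 of the libraries labelled Bmal1-/-, and to 2 without Bmal1+/+ replicate 2 or replicate 1 or 3 of the other group.

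Receptors of osteopontin, the product of Spp1, were tested in all 9 cases, with a median log2 fold change of -0.19. Among the 9, 1 rose and 3 fell, against 14.9% and 16.2% of all tested genes. Cd44 had 15.6, 17.3, 18.1 and 19.9 CPM in Bmal1+/+ and 4.61, 3.53, 3.98 and 11.5 CPM in the libraries labelled Bmal1-/-. It fell without overlap (log2 fold change -1.58, SE 0.34, adjusted p = 0.00643 by edgeR), and replicate 4 was again the highest of its group. Itga4 (integrin alpha 4) fell by 1.40 on the log2 scale (adjusted p = 0.00116), and Itga5 (integrin alpha 5) rose by 1.06 (adjusted p = 0.00232).

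Other transcripts of bile duct cells were then set beside the members. Of 18 cholangiocyte genes on the list, 11 were tested, with a median log2 fold change of -0.75. Among the 11, 1 rose and 5 fell, against 14.9% and 16.2% of all tested genes. The list summed to 432 to 571 CPM in Bmal1+/+ and to 230 to 349 CPM in the libraries labelled Bmal1-/-. In part this sum follows single genes. Onecut1 stood at 37.8 to 94.7 CPM in Bmal1+/+ and at 4.86 to 69.6 CPM in the other group, and was not called (adjusted p = 0.232 by edgeR). Dmbt1 reached 116 CPM in Bmal1+/+ replicate 2. The sum is therefore no measure of duct cells. Prom1 (CD133) fell from 4.90 to 18.6 CPM to 0.622 to 1.31 CPM (log2 fold change -3.54, SE 0.51, adjusted p = 8.2e-04 by edgeR). Slc10a2, the apical bile acid transporter, fell from 47.4 to 53.6 CPM to 5.19 to 39.1 CPM (log2 fold change -1.65, adjusted p = 0.0326), with replicate 4 again highest. Its log2 fold change was -2.56 (adjusted p = 6.4e-05) without that library, and the call was lost when any other 1 of the 7 was left out (-1.68 to -1.37). Sctr and Cftr, the secretin receptor and the chloride channel that duct cells use for secretion, had at most 1 and at most 6 counts in any library. The list's count of 6 called genes was 3 without replicate 3 of the libraries labelled Bmal1-/-.

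Several duct genes were highest in 1 library. Bmal1+/+ replicate 2 held the highest value of Epcam, Krt7 and Krt19, and of 7 of the 18 cholangiocyte genes, while 11.5% of all tested genes were highest there. Dmbt1, a secreted mucosal glycoprotein, had 1, 1817, 7 and 49 counts in Bmal1+/+ and at most 6 in the libraries labelled Bmal1-/-. Muc1, an apical mucin, had 11, 75, 1 and 5 counts in Bmal1+/+ and at most 6 in the others, and Cd24a had 34, 132, 35 and 28 counts against at most 26. These values stand beside those of Krt19 and Epcam, and their part in those results was not tested. With replicate 2 left out, Krt19 still fell (log2 fold change -1.25) and Epcam was not called (-1.09, adjusted p = 0.134).

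**Figure D5:**
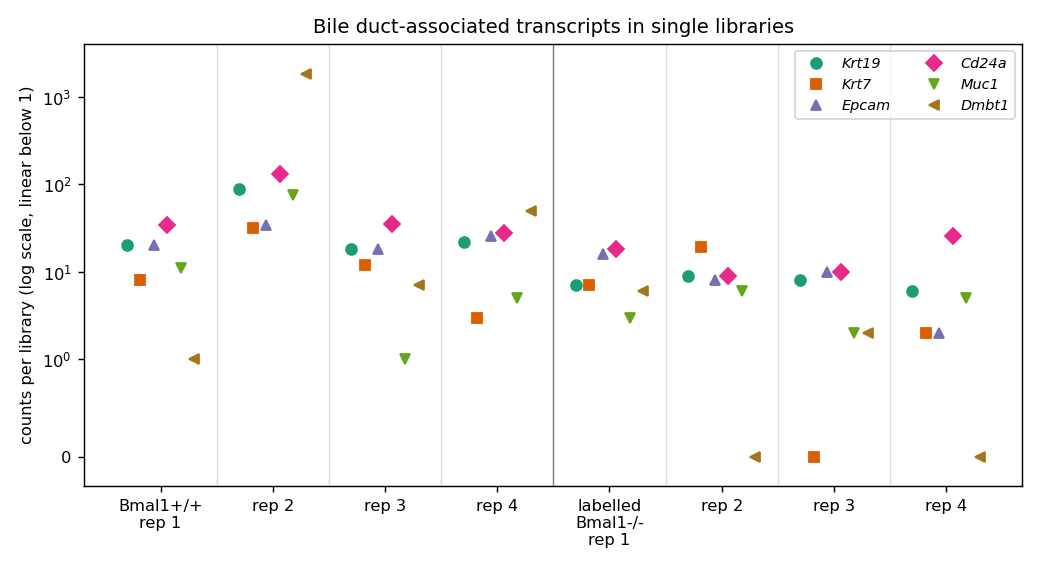
Counts of Krt19, Krt7, Epcam, Cd24a, Muc1 and Dmbt1 in each of the 8 libraries, on an axis that is logarithmic above 1 and linear below, with the points of a library spread sideways so that they can be told apart. All 6 genes are at their highest in Bmal1+/+ replicate 2, where Dmbt1 reaches 1817 counts.

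Replicate 4 of the libraries labelled Bmal1-/- held the highest value of Krt8, Krt18 and Spp1, where 14.5% of all tested genes were highest. In the same library Saa1, an acute-phase protein of hepatocytes, reached 7737 CPM, against 10.9 to 80.2 CPM in the other 7, and Fga (fibrinogen alpha chain) reached 14280 CPM against 4668 to 5704 CPM in the other 3 of its group. The 10 leukocyte genes summed to 223 CPM there, against 101 to 119 CPM in the other 3 of its group. These peaks share 1 library with those of the keratins and Spp1, and their part in those values was not tested. Over the 8 libraries, the genes whose deviations from the group means were most like those of Spp1 were Aig1 and Fam129a (Pearson r 0.992 for each), and for Krt18 they included Hp (0.984), the acute-phase protein haptoglobin. For Krt8 they were Atp6v0c (0.986) and P2rx4 (0.976), for Sox9 Pomk (0.963) and AC148013.1 (0.957), and for Cdh1 Setd7 (0.955) and Rassf2 (0.947), each out of 10022 genes. The 8 points share their libraries and depths, and replicate 4 of the libraries labelled Bmal1-/- was the highest for Spp1, Krt18 and Krt8, so these values are a description only.

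Marker lists of other cells held called genes as well, where 14.9% of all tested genes were called higher and 16.2% lower. Of 11 fibroblast genes tested out of 12, 7 were called by edgeR, all lower, with a median log2 fold change of -0.76, and their sum went from 173 to 262 CPM in Bmal1+/+ to 123 to 130 CPM in the libraries labelled Bmal1-/-. Postn (periostin) fell by 2.26 on the log2 scale (adjusted p = 2.9e-04), Thy1 by 1.28 (adjusted p = 0.00860) and Vim by 0.67 (adjusted p = 0.00952), whereas Col1a1 had a log2 fold change of -0.01 (adjusted p = 0.976), a sign that turned under other settings. Of the 8 endothelial genes, 5 fell, with a median of -0.44 and sums of 234 to 275 CPM against 156 to 197 CPM, among them Cdh5 (log2 fold change -0.74), Tek (-0.70) and Pecam1 (-0.46, adjusted p = 0.0271). Pecam1 lost its call in 5 of the 8 fits that left out 1 library, Bmal1+/+ replicate 1 or 2 or, in the other group, replicate 2, 3 or 4 (-0.45 to -0.40). Of the 10 leukocyte genes, 5 fell, with a median of -1.07 and sums of 258 to 321 CPM against 101 to 223 CPM, among them Ptprc (-1.36, adjusted p = 0.00631) and Adgre1 (F4/80 of macrophages, -1.31, adjusted p = 0.00142).

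Of the 20 hepatocyte genes, all were tested, with a median of 0.13. Among the 20, 3 rose and 1 fell, against 14.9% and 16.2% of all tested genes. Alb fell (log2 fold change -2.10, SE 0.20, adjusted p = 6.8e-05 by edgeR), Apoa1 rose (1.58, adjusted p = 0.00107), Fga rose (1.20, adjusted p = 0.0256), and Hnf4a had a log2 fold change of -0.21 (adjusted p = 0.312). Fga lost its call without Bmal1+/+ replicate 1 (adjusted p = 0.0586), 2 (0.0688) or 4 (0.0712), and had a log2 fold change of 0.69 with replicate 4 of the other group left out. The count of 4 called was 2 without Bmal1+/+ replicate 2 and 7 without replicate 4 of the libraries labelled Bmal1-/-. Of the intestinal genes 5 were tested, with a median log2 fold change of 0.10 and sums of 59.0 to 83.4 CPM against 38.3 to 82.3 CPM. None of the 5 was called by edgeR: the count was 0, as it was at an unadjusted p below 0.05, by DESeq2 and by limma-voom, and it was 2 without replicate 4 of the libraries labelled Bmal1-/-. In summed CPM the hepatocyte list exceeded every other list in every library. Whether these shifts in other cells' genes took part in the changes of Sox9, Cdh1, Krt19 and Epcam was not tested.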

How the data were processed

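RNA sequencing libraries of 4 Bmal1+/+ and 4 Bmal1-/- samples were grouped by their genotype labels and replicate descriptions. Per the study's methods, paired-end reads were aligned by HISAT2 to GRCm38 and the authors counted the fragments on each gene with StringTie. The submitters' processing notes instead name TopHat2 2.0.6 and CASAVA 1.8, so the aligner is uncertain. The authors deposited raw counts, which are whole numbers, and FPKM values. For 100.0% of 9653 genes with at least 50 counts in every library, FPKM equalled the count over the library total and 1 length within 1%. The use of strand in counting is not given in the sources used here. The methods and the labels give different amounts of RNA as input, and the design text speaks of an array although the files hold sequencing counts.

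Symbols came from GENCODE annotation of GRCm38 (99.4% of 55487 identifiers matched). In R 4.3.3, edgeR 4.0.16 was run on the counts as deposited (filterByExpr, TMM, quasi-likelihood test, prior count 0.125, Benjamini-Hochberg over 14353 genes). The call was an adjusted p below 0.05. DESeq2 1.42.0, limma 3.58.1 (voom), other scalings and filters, a prior count of 2, the replicate number as a block and leaving out each library were alternatives. Limma on log2(FPKM + 0.1) and the omission of 2 libraries together were added after seeing the data. The test was checked on simulated counts. Sequence copies were sought with BLAST 2.17.0 (at least 95% identity over at least 100 bases). Figures used Python 3.11.15 and matplotlib 3.10.9.

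The members and lists were chosen with earlier results of these data known. Named genes are the 10 members, Arntl, 1 or 2 defining genes per marker list, from each list up to 2 lowest and 2 highest fold changes among called genes whose groups did not overlap and whose mean reached 1 CPM, and for each member with a mean of at least 5 CPM the 2 genes most like it. The results of 2 genes that this rule names are not reported here. Other genes were named after their values were seen. Same-numbered samples did not deviate together, so the replicate numbers were not taken as pairs.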

Additional observations from a re-analysis of the deposited data

Results flagged for a closer look

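In 13 of the 90 sets of 4 libraries examined, the highest or lowest library lay farther from its neighbour than the limit that Dixon's test sets at 95%. Chance alone sets off this limit in about 1 in 20 sets. Dmbt1, Muc1, Cd24a and Zg16 were examined after their values were seen, so that share does not give the number due to chance here.

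In Bmal1+/+ replicate 2, Krt19 stood at 5.69 CPM with the next library at 1.22, Dmbt1 at 116 CPM with the next at 2.72, Cd24a at 8.44 CPM with the next at 2.35, and Muc1 at 4.79 CPM with the next at 0.661. All 4 are genes of bile duct or mucosal epithelium. In Bmal1+/+ replicate 4, the keratin Krt8 was lowest at 122.6 CPM with the next at 152.6, the hepatocyte factor Hnf4a was lowest at 680 CPM with the next at 875, and Zg16, a secreted lectin of pancreas and intestinal goblet cells, stood at 2.39 CPM with 0 in the other 3. In Bmal1+/+ replicate 3, the protease Prss8 was lowest at 2.21 CPM with the next at 2.88.

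Replicate 4 of the libraries labelled Bmal1-/- held 5 such values. Spp1 stood at 122.2 CPM with the next library at 41.1, Slc10a2 at 39.1 CPM with the next at 10.4, Fga at 14280 CPM with the next at 5704, Cd44 at 11.5 CPM with the next at 4.61, and Itga4 at 6.43 CPM with the next at 3.87. The cause was not tested for any of these values.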

How the results depend on the processing

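Of 131 recomputed fold changes of the 7 tested members, 115 kept their direction and their side of the threshold, 13 lost a call, 3 gained one and none reversed. The prior count of 2 alters the fold change but not the p-value, so its 7 values among the 115 could not change a call. Sox9 and Cdh1 kept their calls under every alternative run. The count of members called was 2, not 4, when at least 10 counts were required in every sample, since only 5 members were then tested, and it was 3 to 4 when a library was left out and 5 with DESeq2. Epcam lost its call with library size only (log2 fold change -1.27, adjusted p = 0.0552), with no filter (-1.31, adjusted p = 0.0894) and without the 2 doubted libraries (-0.77), and ranged from -1.68 to -0.98 when each library was left out (adjusted p = 0.0326 to 0.134). Krt19 lost its call under limma-voom (-1.76, adjusted p = 0.0524) and ranged from -2.40 to -1.25 when each library was left out. Spp1 gained a call under DESeq2 (1.09, adjusted p = 0.0195) and ranged from 0.42 to 1.30 when each library was left out. The log2 ratio of Krt18 to Krt8 differed by 0.13 to 0.30 when each library was left out. With the replicate number as a replicate block, Epcam was at -1.37 (adjusted p = 0.0812). The block changed the call of no other member. Grhl1 and Fga lost theirs under it, and the counts of called Notch and YAP, junction and cholangiocyte genes were 3, 11 and 5 in place of 4, 12 and 6. The numbers are shared labels only, since same-numbered samples correlated between -0.0922 and 0.0609. Col1a1, near 0, changed sign with library size only (0.0201), in limma on FPKM (0.00311), without the 2 doubted libraries (0.00358) and when single libraries were left out (-0.20 to 0.12, positive values 0.03, 0.12, 0.02 and 0.12). The count over all genes, 4457, ranged from 3599 to 4832. Among the lists, counts moved by over 1.5 times for the Notch and YAP genes (4, with 1 to 2 under 10 alternatives), the regulators (5, with 2 to 3 under 6), the epithelial repressors (1, with 0 under 6), the intestinal genes (0, with 1 with no filter and 2 without replicate 4 of the libraries labelled Bmal1-/-), the hepatocyte genes (4, with 2 without Bmal1+/+ replicate 2 and 7 without replicate 4 of the libraries labelled Bmal1-/-), the cholangiocyte genes (6, with 3 without replicate 3 of the libraries labelled Bmal1-/-) and the endothelial genes (5, with 3 without the 2 doubted libraries). The cause of these moves was not tested. Krt7, Cldn4 and Cldn7, with at most 32 counts in any library, did not pass the expression filter.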

Other observations

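The junction claudin Cldn2, which is expressed in leaky epithelia, was at 3, 672, 2 and 898 counts in Bmal1+/+ replicates 1 to 4 and at 581, 1127, 852 and 1277 counts in the libraries labelled Bmal1-/-. Bmal1+/+ replicates 2 and 4 lay within the range of the other group and replicates 1 and 3 at or below the floor of 3 counts, and the log2 fold change of 1.48 had an adjusted p of 0.349 by edgeR. Cgn (cingulin), a scaffold of the same junctions, had 251, 183, 157 and 254 counts against 1071, 863, 664 and 632, without overlap (log2 fold change 2.07, SE 0.18, adjusted p = 3.5e-05).

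Bmal1+/+ replicate 4 carried 2314 counts on 10 genes of pancreatic digestive enzymes, against 2, 19 and 2 in the other Bmal1+/+ libraries and at most 3 in the libraries labelled Bmal1-/-. In that library 23 genes had at least 50 counts and at least 10 times the next library, against 11 in replicate 4 of the libraries labelled Bmal1-/- and at most 2 in any other library. These genes were chosen after their values were seen.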
